A study of Rattus norvegicus with 5 samples.

Results

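The potassium channel genes of the rat cortex were taken as all array probes whose gene name begins with Kcn, apart from Kcne2 and Kcnj13, and every probe was kept apart. This gave 99 probes for 83 genes, of 35737 gene names on the array. A total of 87 probes, for 74 genes, were bright enough to test. The samples were parietal cortex of rats given kaolin, a clay that obstructs the flow of cerebrospinal fluid and enlarges the ventricles (hydrocephalus), and parietal cortex of rats given saline. Pups were injected at postnatal day 1 and their cortex was collected 21 days later, at postnatal day 22; the labels name neither a strain nor the number of animals behind a sample. Each of 5 two-colour arrays paired 1 kaolin sample in Cy3 with 1 saline sample in Cy5, so the study has 5 samples per treatment, and every ratio below is the log2 of kaolin over saline on one array.

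Potassium channels let potassium leave or enter cells and set the resting voltage, the shape of action potentials and the rate of firing. Voltage-gated, calcium-activated and sodium-activated channels repolarize neurons, leak channels hold the resting voltage, and inward rectifiers pass potassium more readily into the cell than out of it. In astrocytes an inward rectifier built from Kcnj10, alone or with Kcnj16, carries much of the potassium conductance and clears potassium released by active neurons.

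The arrays differed among themselves, and the dyes were never exchanged, so dye and treatment cannot be told apart. Arrays 1 to 4 were on 1 slide and array 5 on another. Over all 29118 tested probes the ratios of array 2 ran against those of array 1 (Pearson's r = -0.37), and r between array 2 and the other 3 arrays lay between -0.172 and -0.062. Arrays 3 and 4 had r = 0.825 across probes. Over the 87 potassium channel probes, arrays 1 and 2 had r = -0.361 and arrays 3 and 4 had r = 0.766. Probes are not independent replicates, and these are descriptions. Results are therefore given with array 2, and, where it matters, without array 2 or with its sign turned. Median spot signals were 95.8 to 117 for kaolin and 152 to 189 for saline, no spot was saturated, and the number of arrays limits the precision.

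None of the 87 potassium channel probes passed an adjusted p of 0.05 in limma, and neither did any probe on the array (0% of 29118). At an unadjusted p under 0.05, 7 of 87 were higher in kaolin cortex (8.05%, against 8.82% of all tested probes) and 7 were lower (8.05%, against 9.32%). Median centring in place of loess gave 6 higher and 25 lower (6.9% and 28.7%, against 4.27% and 25.6% of all tested probes), and the scanner's processed signals gave 11 higher and 6 lower (12.6% and 6.9%, against 9.79% and 7.33%). The smallest adjusted p among the members was 0.243, which was also the smallest on the array. The sign was positive on all 5 arrays for 5 probes (5.75%, against 6.22% of all tested probes) and negative on all 5 for 6 probes (6.9%, against 6.65%). These shares are close to those of the array as a whole. The 7 higher probes and the 5 positive on all arrays both include the dimmer Kcnk6 probe, which entered the test only through its kaolin samples. The mean ratio was negative for 57 of the 87 probes (65.5%, against 50.8% of all tested probes). Their median ratio was -0.06 on array 1, 0.09 on array 2, -0.15 on array 3, -0.01 on array 4 and -0.15 on array 5, while that of all tested probes stayed between -0.01 and 0.00 on each array. The mean of the 5 array medians was -0.06 ± 0.10 (SD, n = 5), so the lean towards lower values was smaller than the spread between arrays, and array 2 went against it.

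Without array 2, 8 of the 87 probes passed the adjusted threshold. Kcnj16 was higher (1 probe, 1.15%, against 2.41% of all tested probes), and 7 probes were lower (8.05%, against 2.78%). Those 7 were for Kcnj14, Kcnk2, Kcnh1, Kcnt1, Kcna4, Kcnj6 and Kcnq3, with adjusted p between 0.040 and 0.046. With the sign of array 2 turned, 6 probes passed, all of them lower (6.9%, against 0.835% of all tested probes). When arrays were weighted by their agreement, 11 probes passed in either direction (12.6%, against 11.9%). Whether these channels pass therefore changed with how array 2 was treated, though not only with that. Under median centring in place of loess, with every array kept, Kcnj14 alone passed (1.15%, against 0.0756% of all tested probes). Leaving out array 1, 3, 4 or 5 instead gave no member past the threshold. The smallest adjusted p among members was then 0.282, 0.659, 0.575 and 0.366 in limma.

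**Figure D1:**
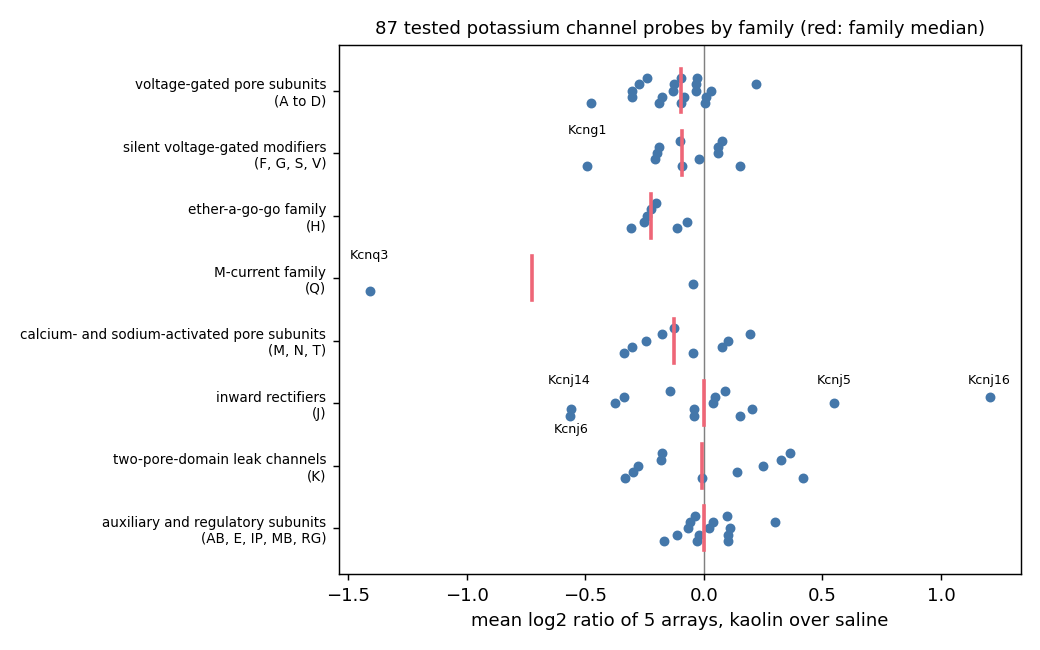
Mean log2 ratio of kaolin over saline (horizontal axis, mean of 5 arrays) for each of the 87 tested probes, with the channel families down the page and a red bar at each family's median. Kcnq3 at -1.41 and Kcnj16 at 1.20 lie farthest from 0, and the 7 ether-a-go-go probes all lie below 0.

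The M-current family (Q) makes slow voltage-gated channels that restrain repetitive firing, and Kcnq3 is one of its subunits in cortical neurons. Kcnq3 had the lowest mean ratio of all potassium channel probes. Its probe (NM_031597, rn4 chr7:103325196-103325256, minus strand) read log2 intensities of 10.93, 9.87, 8.80, 9.50 and 9.45 in the kaolin samples of arrays 1 to 5, against 12.08, 10.56, 11.34, 11.50 and 10.10 in the saline samples. The kaolin sample was the lower of the pair on all 5 arrays, although the levels of the treatments overlapped. The log2 ratios were -1.15, -0.70, -2.54, -2.0 and -0.65, with a mean of -1.41 ± 0.83 (SD, n = 5) and an adjusted p of 0.243 in limma. This is a level 2.65-fold higher in saline cortex. Arrays 3 and 4 gave the lowest ratios. Without array 2 the mean was -1.59 (adjusted p = 0.046), and within the first slide alone, without array 5, it was -1.60 (adjusted p = 0.366).

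The probe of Kcnq1 was not above background on any array in either channel.

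**Figure D2:**
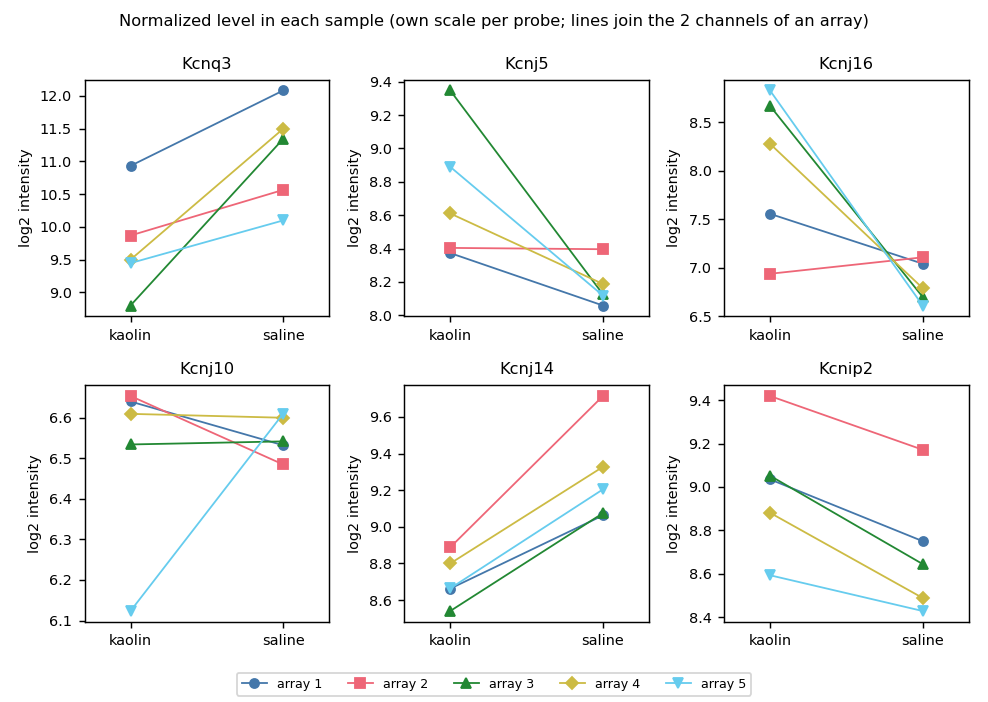
Normalized log2 intensity (vertical axis, own scale per probe) of 6 probes in the kaolin sample (left) and the saline sample (right) of each array, joined by a line. All 5 lines rise towards saline for Kcnq3 and Kcnj14 and fall towards saline for Kcnip2, while the line of array 2 runs against the other 4 for Kcnj16.

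Among the inward rectifiers (J), 14 probes for 11 genes were tested. Their median mean ratio was close to 0, with 7 positive and 7 negative, yet they held both the highest ratio of the whole set and the member with the smallest unadjusted p. The ratios of the assembly partners Kcnj16 and Kcnj10 parted. Kcnj14 and Kcnip2 kept the same sign on every array, as did other members, Kcnj5 and Kcnk9 among them. Starts of Kcnj16, Kcnj10, Kcnj14 and Kcnip2 are shown, a choice made with their values known. Each is the window of 300 bases around the RefSeq start (GRCr8), most of it before the start, read 5′ to 3′ on the gene's strand: Kcnj16 at chr10:96517074-96517373 (plus), Kcnj10 at chr13:87334260-87334559 (plus), Kcnj14 at chr1:105437209-105437508 (minus) and Kcnip2 at chr1:254613849-254614148 (minus). Capitals mark matches to any of 5 motifs searched on both strands. The G- and C-rich box of many promoters was searched as GGGCGG, and the core promoter box as TATAAA. The binding letters of AP-1 were searched as TGANTCA, the cyclic AMP response element (CRE) as TGACGTCA, and the interferon-gamma activated site (GAS) of STAT factors as TTCNNNGAA.
Kcnj16: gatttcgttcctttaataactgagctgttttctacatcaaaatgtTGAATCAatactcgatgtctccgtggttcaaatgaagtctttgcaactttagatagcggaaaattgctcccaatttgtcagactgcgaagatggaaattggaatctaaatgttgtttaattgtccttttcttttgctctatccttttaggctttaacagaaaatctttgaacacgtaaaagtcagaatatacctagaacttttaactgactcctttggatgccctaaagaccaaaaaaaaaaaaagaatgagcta
Kcnj10: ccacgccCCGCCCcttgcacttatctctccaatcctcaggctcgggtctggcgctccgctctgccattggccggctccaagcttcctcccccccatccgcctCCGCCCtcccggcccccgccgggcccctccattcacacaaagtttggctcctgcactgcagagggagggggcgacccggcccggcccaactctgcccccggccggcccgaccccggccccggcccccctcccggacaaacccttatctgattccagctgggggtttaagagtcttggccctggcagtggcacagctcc
Kcnj14: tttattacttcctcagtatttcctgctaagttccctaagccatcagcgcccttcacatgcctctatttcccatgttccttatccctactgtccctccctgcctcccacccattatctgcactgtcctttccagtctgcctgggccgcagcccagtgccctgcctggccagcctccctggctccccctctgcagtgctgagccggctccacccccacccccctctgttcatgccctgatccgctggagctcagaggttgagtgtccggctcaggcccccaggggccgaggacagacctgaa
Kcnip2: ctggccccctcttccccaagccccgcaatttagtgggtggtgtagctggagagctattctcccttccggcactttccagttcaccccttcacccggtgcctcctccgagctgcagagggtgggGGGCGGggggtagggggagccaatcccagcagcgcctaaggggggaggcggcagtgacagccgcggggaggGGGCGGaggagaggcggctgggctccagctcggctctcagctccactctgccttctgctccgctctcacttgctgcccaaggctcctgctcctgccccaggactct
The Kcnj16 sequence is 34% G and C and holds 1 AP-1 match, whereas that of Kcnj10 is 70.3% G and C and holds 2 GC boxes. Kcnip2 also has 2 GC boxes (67.7% G and C), and Kcnj14 has no match to these letters in the window (60.7%). Promoter entries in the RefSeq table were found for 54 of the 83 genes, Kcnq3 not among them. A single entry was taken per member gene, whereas the promoters set beside them are all entries, not matched for kind of gene. A GC box was in 27 of the 54 (50%, against 33.1% of 33469 promoters of the same length) and TATAAA in 1 (1.85%, against 14.2%). AP-1 letters were in 3 (5.56%, against 7.33%), GAS letters in 7 (13%, against 8.87%) and CRE letters in none (against 1.83%). The median G and C content was 61.2% for the members and 51.7% for all promoters; a match to a motif is a description of the letters only.

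Kcnj16 encodes an inward rectifier subunit that joins Kcnj10 in astrocytes and makes the channel sensitive to pH. The log2 intensities of its probe (NM_053314, rn4 chr10:100515861-100515920, plus strand) were 7.55, 6.94, 8.67, 8.28 and 8.83 in kaolin cortex, against 7.04, 7.11, 6.70, 6.79 and 6.61 in saline cortex. The kaolin sample was higher on 4 arrays and lower on array 2, and the saline samples spread less than the kaolin samples. The ratios were 0.51, -0.17, 1.97, 1.49 and 2.22, with a mean of 1.20 ± 1.01 (SD, n = 5), a 2.3-fold higher level in kaolin cortex, and an adjusted p of 0.243. Without array 2 the mean was 1.55 (adjusted p = 0.044), with its sign turned 1.27 (adjusted p = 0.062), and on the first slide alone, without array 5, 0.95 (adjusted p = 0.366). From the scanner's own processed signals the mean was 1.91 (adjusted p = 0.262), more than 1.5 times the value here.

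The partner Kcnj10, the main inward rectifier of astrocytes, had ratios of 0.11, 0.17, -0.01, 0.01 and -0.49, with a mean of -0.04 ± 0.26 (adjusted p = 0.846). When the processing or the arrays included were changed, its mean ran from -0.32 (authors' series matrix) to 0.07 (without array 5). Its probe (NM_031602, rn4 chr13:88370316-88370375, plus strand) was dim, at 6.51 ± 0.22 in kaolin and 6.55 ± 0.05 in saline samples (log2 intensity), and was above background in 4 of 5 kaolin and 5 of 5 saline samples. The dimmest probes called above background averaged 6.16 in the kaolin and 6.13 in the saline channel, and ratios of such dim probes are pulled towards 0 by the offset of 50 added in background correction. The ratio of Kcnj16 exceeded that of Kcnj10 by 0.41, -0.34, 1.98, 1.48 and 2.70 on the 5 arrays, a mean of 1.24 ± 1.22; the pair was chosen with its values known and was not tested. Array 2 was again the one with the opposite sign. Cell type markers, here and below, were read from the brightest tested probe of each gene. Markers of reactive astrocytes and of microglia moved with Kcnj16: all 7 tested reactive astrocyte markers had positive mean ratios, with medians of 0.14, -0.04, 2.33, 1.91 and 2.35 on arrays 1 to 5. All 10 tested microglial markers were positive as well, with medians of 0.09, 0.06, 2.16, 1.5 and 2.22. Of 6 ependymal markers 5 were tested, with 4 positive and 1 negative, and medians of 0.46, -0.26, 0.92, 1.10 and 0.52. General astrocyte markers gave 5 positive and 5 negative of 10, with medians of -0.11, 0.24, 0.25, -0.01 and 0.24. Their part in the Kcnj16 values was not tested, and in bulk tissue more cells of a type and more RNA per cell cannot be told apart.

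Kcnj14, an inward rectifier subunit described in neurons, had the smallest unadjusted p of the set and the only probe whose kaolin samples all lay below the saline samples. This happened for 1 of 87 probes (1.15%, against 1.61% of all tested probes). Its probe (NM_170718, rn4 chr1:96294062-96294121, minus strand) read 8.66, 8.89, 8.54, 8.80 and 8.66 in kaolin cortex, against 9.06, 9.71, 9.07, 9.33 and 9.20 in saline cortex (log2 intensity). The ratios were -0.40, -0.83, -0.53, -0.53 and -0.54, with a mean of -0.57 ± 0.16 (SD, n = 5) and an adjusted p of 0.243, a 1.48-fold higher level in saline cortex. Array 2 gave the lowest of these ratios, unlike most members, and without it the mean was -0.50 (adjusted p = 0.040). Under median centring in place of loess the adjusted p was 0.049; turning the sign of array 2 brought the mean to -0.24.

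G-protein-gated inward rectifiers, which open when inhibitory neurotransmitter receptors are activated, gave mixed ratios. Kcnj5 was positive on all 5 arrays, at 0.31, 0.01, 1.22, 0.42 and 0.77 (mean 0.55 ± 0.47, adjusted p = 0.243). Kcnj6 was negative on 4 arrays, at -0.93, 0.52, -1.24, -0.78 and -0.36 (mean -0.56 ± 0.68, adjusted p = 0.279). It averaged -0.83 without array 2 (adjusted p = 0.044) and -0.39 without array 3. The Kcnj5 ratio lay above that of Kcnj6 on 4 of 5 arrays. Kcnj9 averaged 0.09 ± 0.46. The 4 tested probes of Kcnj3 disagreed in sign, at means of -0.37 and -0.34 for the brighter NM_031610 probes, 0.05 ± 0.28 for the other NM_031610 probe and -0.04 for a probe of U42423. The U42423 probe was dim, at 6.43 in kaolin and 6.47 in saline samples (log2 intensity). It was above background on 3 of 5 arrays in each channel, so its sign is not read as a disagreement. The array files place the NM_031610 probes on chromosome 8 and the U42423 probe on chromosome 3 of rn4.

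The pore subunits of ATP-sensitive channels, which couple potassium flow to energy state, averaged 0.15 ± 0.28 for Kcnj8, the form of pericytes and smooth muscle, and -0.14 ± 0.27 for Kcnj11, the neuronal form. Their regulatory subunits Abcc9 and Abcc8 averaged -0.24 ± 0.35 and -0.35 ± 0.33. Kcnj8 changed sign, to -0.03, under median centring. The strong rectifiers Kcnj4 and Kcnj12 averaged 0.04 ± 0.26 and 0.20 ± 0.30, with Kcnj4 at -0.13 under median centring and Kcnj12 at -0.01 when the sign of array 2 was turned. Kcnj2 was not above background on any array.

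**Figure D3:**
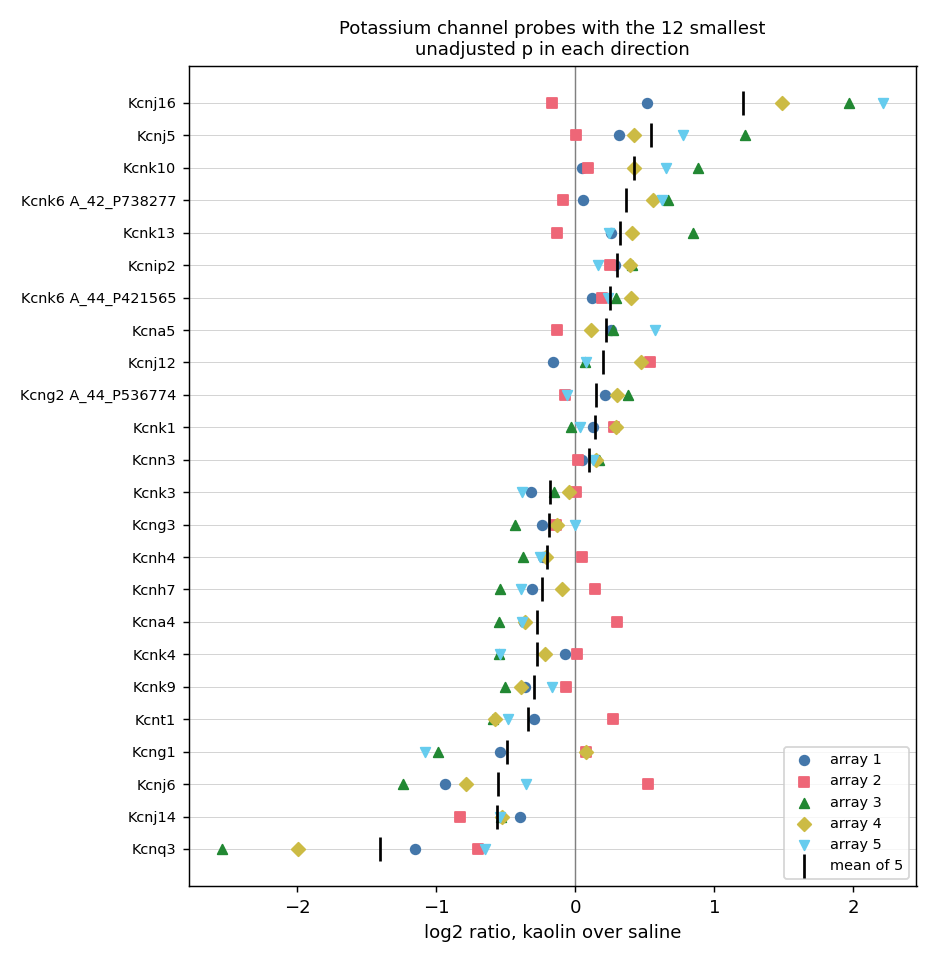
Log2 ratio of kaolin over saline on each of the 5 arrays for the 12 probes of smallest unadjusted p on either side of 0, with a bar at each mean. The points of array 2 often lie on the other side of 0 from those of arrays 3 to 5, as for Kcnj16, Kcnt1 and Kcnj6.

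Tandem-pore-domain leak channels (K) set the background potassium conductance. Of 11 tested probes, 5 had positive and 6 negative means. At an unadjusted p under 0.05, 4 were higher and 2 were lower, where 8.82% and 9.32% of all tested probes were. The 4 include the dimmer Kcnk6 probe, whose call is not read as a result for the reason given below. Both probes of Kcnk6, a leak channel known from mouse macrophages, were positive. The brighter one had ratios of 0.05, -0.09, 0.66, 0.56 and 0.62 (mean 0.36 ± 0.35, adjusted p = 0.248). The dimmer one had ratios of 0.12, 0.19, 0.29, 0.40 and 0.24, and was above background in all 5 kaolin samples and in no saline sample. Computed as a bound, its level was 1.19-fold higher in kaolin cortex. The probe's own saline readings lay above the lowest signals called above background, so this equals the plain ratio of means. It is not a guaranteed minimum. The mean log2 ratio was 0.17 with the sign of array 2 turned and 0.83 from the processed signals. The dimmer probe passed the filter on dim probes only through its kaolin samples, so no test is read from it. Kcnk13, a leak channel of microglia in mouse, averaged 0.32 ± 0.35 (adjusted p = 0.269), and arrays 3 and 4 were highest at 0.85 and 0.40. Median centring brought it to 0.13. The microglial marker medians given above were highest on arrays 3 to 5, as were the ratios of the brighter Kcnk6 probe, and their part in these ratios was not tested.

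Among the leak channels gated by stretch and lipids, ratios parted. Kcnk10 was positive on all 5 arrays, at 0.05, 0.09, 0.88, 0.42 and 0.65 (mean 0.42 ± 0.36, adjusted p = 0.243), and reached 0.98 from the processed signals. The Kcnk10 probe was dim in saline samples, at 6.71, against 7.12 in kaolin samples (log2 intensity). Kcnk2 was negative on 4 arrays, at -0.68, 0.44, -0.58, -0.44 and -0.41 (mean -0.33 ± 0.45, adjusted p = 0.310). Without array 2 it averaged -0.53 (adjusted p = 0.041), more than 1.5 times as far from 0, and without array 1 it averaged -0.25. Kcnk4 averaged -0.28 ± 0.26 (adjusted p = 0.255). The acid-sensitive leak channels Kcnk9 and Kcnk3 averaged -0.30 ± 0.18 (adjusted p = 0.243) and -0.18 ± 0.17 (adjusted p = 0.294), and Kcnk9 was negative on all 5 arrays, at -0.36, -0.07, -0.51, -0.39 and -0.16. From the processed signals Kcnk3 averaged -0.47, and its probe was dim, at 6.58 in kaolin and 6.75 in saline samples (log2 intensity). Kcnk1 averaged 0.14 ± 0.14, and -0.06 under median centring.

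The ether-a-go-go family (H) holds voltage-gated channels with slow or unusual gating, among them Kcnh2, known for its part in cardiac repolarization. All 7 tested probes had negative means, with a median of -0.22 and a range from -0.31 to -0.07. The family median was -0.23, 0.17, -0.54, -0.13 and -0.39 on arrays 1 to 5, so array 2 was positive and the other 4 negative. Kcnh4 averaged -0.20 ± 0.15 (adjusted p = 0.256; -0.46 from the processed signals), Kcnh7 -0.24 ± 0.27 (adjusted p = 0.291) and Kcnh2 -0.25 ± 0.43 (adjusted p = 0.399). Kcnh1 had ratios of -0.44, 0.63, -0.65, -0.38 and -0.68, with a mean of -0.31 ± 0.54. Without array 2, and with its sign turned, 6 of 7 means were negative, and Kcnh6 was the positive one.

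The voltage-gated pore subunits (A to D) carry the delayed-rectifier and A-type currents of neurons. Of 19 tested probes, 15 had negative means and none reached an unadjusted p under 0.05. The family median was -0.27, 0.12, -0.15, -0.01 and -0.02 on the 5 arrays. Kcna4, an A-type subunit, had ratios of -0.37, 0.30, -0.55, -0.36 and -0.38 (mean -0.27 ± 0.33, adjusted p = 0.296). Its mean was -0.42 without array 2 (adjusted p = 0.044) and -0.21 without array 3. The array with a positive sign was array 2.

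Kcna1, an axonal subunit, averaged -0.30 ± 0.54 and -0.19 ± 0.49 on its 2 probes, and its partner Kcna2 -0.13 ± 0.30. Without array 2 the first Kcna1 probe averaged -0.52 (adjusted p = 0.053), and with the sign of array 2 turned -0.53 (adjusted p = 0.049). Kcnd2 and Kcnd3, which carry the A-type current of dendrites, averaged -0.13 ± 0.27 and -0.10 ± 0.22. Kcnc1 and Kcnc2 serve fast-spiking neurons and averaged -0.24 ± 0.65 and -0.03 ± 0.15. Array 5 alone took Kcnc1 to -1.27, and without that array the mean was 0.02. Kcna5 was positive at 0.22 ± 0.26 (0.40 from the processed signals), and the probes of Kcna3, which is also known from immune cells, averaged -0.08 and 0.00. More than 1 probe was tested for 9 genes, and in 4 of them the signs differed, Kcnj3, Kcna3 and Kcnab1 among these.

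The silent subunits (F, G, S, V) form no channel alone but modify the voltage-gated channels they join. Of 11 tested probes 7 had negative means, with a median of -0.09. Kcng1 had ratios of -0.54, 0.08, -0.99, 0.08 and -1.08 (mean -0.49 ± 0.56, adjusted p = 0.264). Kcng3 averaged -0.19 ± 0.16 and was negative on all 5 arrays. Kcns1 and Kcnv1, named here after their values were seen, had their lowest ratios on array 5, at -1.40 and -0.94. The 3 probes of Kcng2 averaged 0.15, 0.06 and 0.06.

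Calcium- and sodium-activated pore subunits (M, N, T) end bursts of firing. Of 9 tested probes, 6 had negative means, with a median of -0.13. The sodium-activated Kcnt1 had ratios of -0.30, 0.27, -0.59, -0.57 and -0.48 (mean -0.34 ± 0.36, adjusted p = 0.263). Its mean was -0.49 without array 2 (adjusted p = 0.041) and -0.27 without array 3. The large-conductance channel Kcnma1 averaged -0.30 ± 0.39 and -0.24 ± 0.53 on its 2 probes, and the small-conductance channel Kcnn2 -0.18 ± 0.36. Kcnn3 was positive on all 5 arrays, at 0.10 ± 0.07, and averaged 0.37 from the processed signals. Its probe was dim, at 6.73 in kaolin and 6.63 in saline samples (log2 intensity), so the offset in background correction pulls its ratio towards 0. Kcnn4, the intermediate-conductance channel found in immune cells, had ratios of -0.29, -0.12, 0.75, 0.50 and 0.12 (mean 0.19 ± 0.43, and 0.39 from the processed signals), so arrays 3 and 4 stood above the rest.

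**Figure D4:**
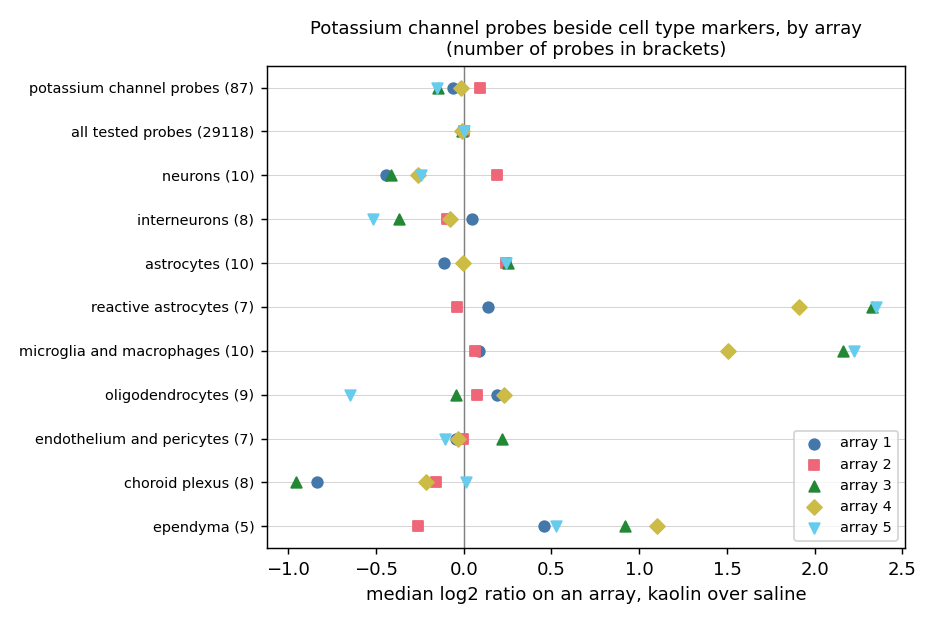
Median log2 ratio of kaolin over saline on each of the 5 arrays for the potassium channel probes, for all tested probes and for marker lists of cell types. The potassium channel medians lie between -0.15 and 0.09 and those of the neuronal markers between -0.44 and 0.19, both with array 2 highest, while the reactive astrocyte and microglial medians are 1.5 or more on arrays 3 to 5.

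Of 10 neuronal markers, all tested, 9 had negative means, and their median was -0.44, 0.19, -0.42, -0.26 and -0.24 on arrays 1 to 5. Array 2 was positive for these markers, as it was for the potassium channel median and for the families A to D and H, but the silent subunits had medians of 0.16, -0.06, -0.32, 0.28 and -0.33, and Kcnq3 was negative on array 2. Interneuron markers, 8 of 9 tested, had medians of 0.05, -0.09, -0.37, -0.08 and -0.52. Choroid plexus markers, 8 of 10 tested, had medians of -0.84, -0.16, -0.95, -0.22 and 0.01. The choroid plexus genes Kcne2 and Kcnj13, which the set leaves out, averaged -0.54 ± 0.40 and -0.52 ± 0.75. Both are among the tested choroid plexus markers, so the medians above already include them. The part of these cell types in the channel ratios was not tested.

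Auxiliary and regulatory subunits (AB, E, IP, MB, RG) tune the pore subunits, and 7 of 14 tested probes had positive means. Kcnip2, a calcium-binding partner of the Kcnd channels, was positive on every array. Its probe (NM_020094, rn4 chr1:251011241-251011585, minus strand) read 9.04, 9.42, 9.05, 8.88 and 8.59 in kaolin cortex, against 8.75, 9.17, 8.64, 8.49 and 8.43 in saline cortex (log2 intensity). The ratios were 0.29, 0.25, 0.41, 0.39 and 0.16, with a mean of 0.30 ± 0.10 (SD, n = 5) and an adjusted p of 0.243. The kaolin sample was the higher on each array, but the levels of the treatments overlapped, and under median centring the mean was 0.16. The related Kcnip4 had ratios of 0.26, 0.15, -0.42, -0.20 and -0.63 (mean -0.17 ± 0.37), below Kcnip2 on all 5 arrays. Kcnab2 averaged -0.06 ± 0.11 and Kcnmb4 -0.02 ± 0.14. Kcne4 and Kcnrg were above background in 3 kaolin samples and in no saline sample, so they entered the test only through kaolin cortex. Kcne3 was above background in 4 kaolin samples and 1 saline sample. Kcne3, Kcne4 and Kcnrg are all counted among the 7 positive means, so that count is not read as a result.

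Other genes of potassium handling were described from a list of 30, of which 26 were tested, each by its brightest tested probe. None passed the adjusted threshold. At an unadjusted p under 0.05, 1 was higher and 5 lower, where 8.82% and 9.32% of all tested probes were. Means were positive for 8 and negative for 18, where 50.8% of all tested probes had negative means. Atp1b1, a subunit of the sodium pump, which returns potassium to cells, held the lowest mean, at -1.01, -0.18, -1.05, -0.65 and -1.0 (mean -0.78 ± 0.37, adjusted p = 0.243). Atp1b2 averaged 0.16 ± 0.58. Aqp4, the water channel that lies beside Kcnj10 on astrocyte endfeet, averaged 0.43 ± 0.39 and was positive on all 5 arrays. It was the highest of 4 tested astrocyte endfoot partners, of which 2 were positive and 2 negative (median -0.01): Dmd averaged 0.08, Dag1 -0.11 and Dtna -0.18. Among 10 tested partners of voltage-gated channels, 4 means were positive and 6 negative (median -0.05). The positive ones were Dlg4 at 0.10, Cntn2 at 0.06, Dpp10 at 0.04 and Dlg1 at 0.02. The lowest were Ank3 and Amigo1. Ank3, which anchors Kcnq3 at the axon initial segment, averaged -0.40 ± 0.49, and Amigo1, a partner of delayed-rectifier channels, averaged -0.27 ± 0.22. The 3 tested HCN channels averaged between -0.16 and -0.14.

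**Figure D5:**
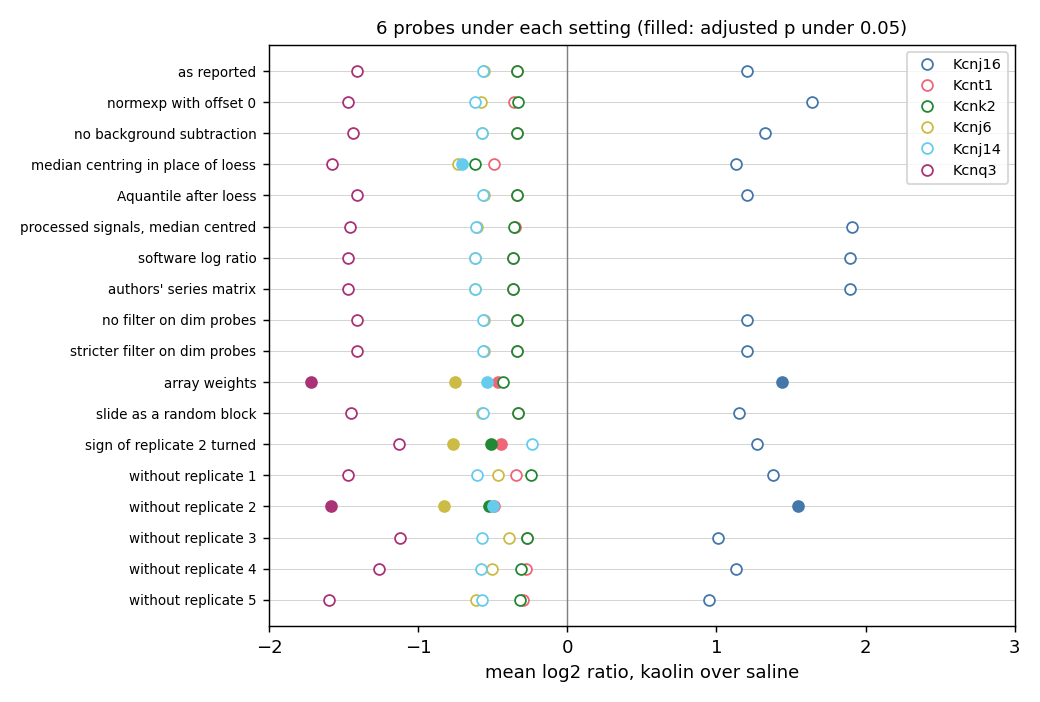
Mean log2 ratio of kaolin over saline for 6 probes (horizontal axis) under each processing setting (rows), with filled points where the adjusted p was under 0.05. All 6 probes kept their sign in the 17 alternatives drawn, and filled points appear under array weights, median centring, the turned sign of array 2 and without array 2. Aquantile scaling leaves the ratios as reported, and the software log ratio and the authors' series matrix nearly coincide.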

How the data were processed

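Parietal cortex RNA was hybridised to 5 two-colour Agilent arrays. Per the file headers, the scanner output comes from Agilent Feature Extraction 10.1.1.1 and holds intensity values, raw (mean signal and local background) and processed (background-subtracted and dye-normalized), a log10 ratio of Cy5 over Cy3, and other values, which are spot flags of 0 or 1. The deposited series matrix holds log2 ratios whose direction was settled against the scanner values (r across probes from -1.00 to -0.978); the authors' normalization and centring are not given in the sources used here, and its column medians were 0.02, -0.05, -0.02, 0.09 and -0.10.

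Outlier spots (86 to 147 per array) were left out. Normexp (offset 50) was applied to mean signals and local background, followed by loess within arrays, with control spots at weight 0. Spots of a probe were averaged. Testing was limited to the 29118 of 41012 probes that 3 or more arrays measured above background, in either channel. Log2 ratios were fitted in limma 3.58.1 (with R 4.3.3 and version 1.17.8 of data.table), testing whether the mean differs from 0 on either side; p-values were adjusted by Benjamini-Hochberg across these probes, with a threshold of 0.05. Since the labels do not name animals, p-values measure only the spread between arrays. The steps were tested on simulated data.

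The members and gene lists were chosen with earlier results of these data known. Every member probe was kept apart, but marker genes and other genes of potassium handling were read from their brightest tested probe only. Named genes were the 12 probes of smallest unadjusted p on either side of 0, a panel of 30 genes, and the 3 genes whose probes disagreed most in sign. Genes named outside this rule (Kcnh1, Kcnh6, Kcnj9, Kcns1, Kcnv1, Kcne3, Kcne4, Kcnrg, Kcnab1 and the untested ones) were chosen after their values were seen. Some genes that this rule takes are not reported here. Kcnip3, a panel gene, was not among the probes. Symbols are those of the array, and 82 member probes were matched to RefSeq by accession. Positions are the array's rn4 positions; exons and UTRs are not given, as no rn4 gene models were used. A level that is a bound compares the mean of the bright channel with the higher, per array, of the dim probe's own level and the lowest level above background. The 17 alternatives changed background correction, normalization, filters, weights, the slide as a block, the sign of array 2 and the arrays included. They are not all distinct. Aquantile scaling after loess evens intensities between arrays and leaves the ratios unchanged, and the software log ratio and the authors' series matrix hold nearly the same values.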

Additional observations from a re-analysis of the deposited data

Results flagged for a closer look

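Among 64 sets of 5 array values (named probes and list medians), 3 had a single array far from the other 4 by Dixon's criterion, and chance marks about 1 in 20 such sets. Kcna4, an A-type voltage-gated subunit, had a log2 ratio of 0.30 on array 2, while its other ratios lay between -0.55 and -0.36 (Dixon ratio 0.783). Kcnk2, a leak channel gated by stretch and lipids, had a log2 ratio of 0.44 on array 2, while the others lay between -0.68 and -0.41 (Dixon ratio 0.753). Kcnj10, the main inward rectifier of astrocytes, had a log2 ratio of -0.49 on array 5, while the others lay between -0.01 and 0.17 (Dixon ratio 0.731). Array 5 was the array of the second slide, and it was there that the Kcnj10 probe was not above background in the kaolin channel.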

How the results depend on the processing

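No potassium channel probe passed the adjusted threshold as reported, and 14 reached an unadjusted p under 0.05. Median centring in place of loess gave 1 probe past the adjusted threshold (Kcnj14, lower) and 22 over the whole array, with 31 members at the unadjusted threshold (6 higher, 25 lower; 29.9% of all tested probes). Array weights (from 0.46 for array 2 to 2.36 for array 4) gave 11, 3477 and 27 (36.2% of all). Turning the sign of array 2 gave 6, 486 and 32 (30.1% of all). Leaving out one array at a time gave from 0 to 8 members and from 0 to 1512 probes past the adjusted threshold, and from 7 to 31 members at the unadjusted one (6.99% to 31.4% of all), the highest without array 2 and the lowest without array 3; without array 1, 1 probe on the array passed. The cause was not tested, except that leaving out an array lowers the number of samples. The median over members stayed negative throughout, from -0.14 under median centring to -0.02 without the filter on dim probes, each within 1 SD of the main value. Of 55 named probes, 6 changed sign under median centring, 5 without array 5, 4 without array 4, 4 with the sign of array 2 turned and at most 2 under each other alternative; none of these passed the threshold in either sign. Each array pairs its kaolin and saline sample, so the ratio is the paired value and the test reported is a paired one. No second group shares the numbers, so no further pairing was possible. Signal over background limits 12 of the 99 probes, which were not above background in either channel on any array.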
